A study of Homo sapiens with 4 samples.

Results

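The regions described here are the first exons of 2836 multi-exon transcripts, measured by ribosome profiling in 4 human leukemia cell lines. They were chosen by measured abundance: for each gene with a summed TPM, the length-normalised abundance of its transcripts, of at least 10 in all 4 libraries, the transcript with the highest mean TPM was taken, and it was kept where it has 4 or more exons. Of the 60651 genes in the deposited tables, 3751 passed the TPM minimum and 2836 of those also passed the exon minimum. The files list 1460406 exons in all. The first exon is the most 5′ exon on the gene's strand, and its coverage, the mean number of footprints over each base as the authors' tables give it, was divided by the length-weighted mean coverage of the internal exons of the same transcript. This quotient, called the first exon ratio here, is 1 where the first exon is as densely covered as the rest of the transcript. Abundance chose the transcripts, so their TPM is not a finding. Just inside the minimum lay MTOR and POFUT1, whose lowest TPM was 10 and 10.01 (both in HL60), and just outside lay SPIN4 at 9.99 in K562 and ZMYND19 at 9.99 in HL60.

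Each line was represented by a single library, and the labels give no treatment. The K562 line was derived from chronic myeloid leukemia and carries erythroid traits. THP-1 comes from an acute monocytic leukemia, HL60 from an acute leukemia with promyelocytic features, and MOLM13 from an acute monocytic leukemia with a KMT2A rearrangement and a FLT3 duplication. All 4 lines were established cultures bought from a repository, kept in serum-containing medium and lysed in a buffer that held cycloheximide, which stalls ribosomes on the mRNA. Because no line has a second library, no difference between lines can be set against replicate spread. No test was possible, and results are given as values and as counts past a fixed fold. Intervals of individual exon ratios cover counting error only, and intervals of medians cover the spread over exons only. Neither kind of interval covers replicate spread.

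Aligned depth came to 344 to 973 megabases per library, lowest in the MOLM13-labelled library and highest in HL60. Footprints are counted here as equivalents of 29 aligned bases, the most frequent fragment length in each of the 4 libraries. The embryonic globin HBE1 stood at a TPM of 8853 in K562, the granule enzyme MPO at 6658 in HL60, and the granule protein AZU1 at 2095 in THP-1. In the MOLM13-labelled library, FLT3 and MEIS1 were listed at 0, HOXA9 stood at 33.1 and the T cell receptor component CD3D at 999, against 3.53 to 41.0 in the other 3. That library is therefore named by its label throughout.

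The first exon of an mRNA carries the cap and most or all of the 5′ untranslated region (5′UTR), which the small ribosomal subunit scans until it meets a start codon in a favourable context, usually with a purine at position -3 and a G at position +4. Ribosomes that begin at an AUG upstream of the main reading frame translate a short upstream open reading frame (uORF), and such frames are known to hold back translation of the main protein and to change that hold under stress or with metabolite levels. Footprints in a first exon can thus come from initiating ribosomes on the main start codon, from early elongation, or from uORFs. First exons of human genes lie in CpG-rich promoters and are richer in G and C than the rest of the gene.

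The start codons below belong to first exons on which the results turn. The first 5 are among the exons most densely covered in all 4 libraries, and the last 3 are exons that held coverage in THP-1 and HL60 but none in K562 or the MOLM13-labelled library. Each line runs 5′ to 3′ with the annotated main start codon in capitals and up to 12 bases on either side, from transcripts of GENCODE release 29 on hg38.
RFC1: cctggggctgcgATGgacattcggaaa
TPT1: tcagtcgccatcATGattatctaccgg
RPF2: gtagcggtagcgATGgacactctggat
PPP4R3B: acagcagccaccATGtcggatacgcgg
CYP51A1: ccgacggagtgaATGgcggcggcggct
RINT1: cgcggaggcgagATGctaccagccggc
PLOD1: catacctcggccATGcggcccctgctg
SLC35A1: tgtcggggaaccATGgctgccccgaga

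The next set shows the first ATG in first exons that lie wholly in the 5′UTR and were covered at least 2-fold above the internal exons in all 4 libraries. The ATG in capitals is upstream of the annotated start codon, which lies in a later exon.
CWC15: aagagtggtaATGgcgtctgtatga
FASTKD1: gggcaaggtctcATGggaaaggtcatg
CCNI: ccccgccgccctATGgcgagagggagc
CCNK: tccatatacaagATGgccgcagtcggc
DDX23: gaaacgggaaagATGgcgacggctccg
NRAS: tgggggctgttcATGgcggttccgggg
SF3B3: tcttgaggtctaATGgcggacgccagt
HEATR1: ctccttggtaccATGtgggaagcgctg

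First exons were covered at a lower density than internal exons in K562 and the MOLM13-labelled library, slightly below them in HL60 and at a higher density in THP-1. When coverage was summed over all transcripts that share an exon, in place of the top transcript alone, the THP-1 median also fell below 1, to 0.956. A first exon was scored where the internal coverage predicts at least 20 footprints over its length in every library, which 1698 of the 2836 met without any use of the first exon's own coverage. Of the 1138 that were not scored, 859 belong to transcripts whose internal exons were at 0 in at least 1 library, and 279 fell under the minimum with internal coverage present. Scored exons had a median length of 182 bases (range 22 to 2940), and the others a median of 131 bases. The median first exon ratio was 0.717 in K562 (95% order-statistic interval over exons 0.676 to 0.753), 1.27 in THP-1 (1.22 to 1.34), 0.67 in the MOLM13-labelled library (0.635 to 0.725) and 0.951 in HL60 (0.909 to 0.991). Among these 4 intervals only those of K562 and the MOLM13-labelled library overlap. The intervals run over the same exons within single libraries, so their separation does not measure a difference between lines. Among all members with internal coverage, scored or not, the medians were 0.717, 1.27, 0.68 and 0.95 in the same order.

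The medians of exons further downstream lay closer together. Second exons of the same transcripts, 1594 of them scored in the same way against the other internal exons, had medians of 1.26 in K562, 1.59 in THP-1, 1.39 in the MOLM13-labelled library and 1.52 in HL60. Internal exons taken singly (17600 scored) had medians of 0.905, 0.909, 0.905 and 0.922, and last exons, which are mostly 3′ untranslated, medians of 0.1 to 0.11. The share of first exons more than 2-fold below the internal level was 36.3% in K562 (617 exons), 16.3% in THP-1 (277), 38.2% in the MOLM13-labelled library (648) and 23.1% in HL60 (393). The share more than 2-fold above was 14.1% (239 exons), 26.9% (457), 11.2% (190) and 14.4% (245) in the same order.

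**Figure D1:**
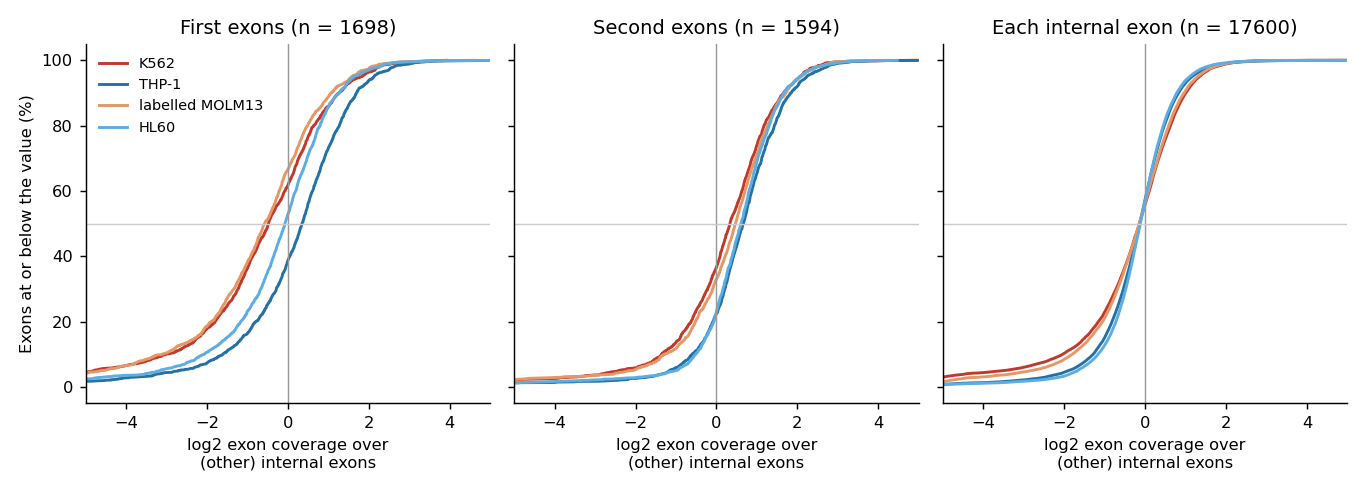
Cumulative share of exons (percent, y axis) by the log2 ratio of their coverage to that of the (other) internal exons of the same transcript (x axis), for first exons, second exons and each internal exon, with 1 line per library. The first exon curves lie apart, with THP-1 furthest to the right (median 1.27) and K562 and the MOLM13-labelled library to the left (0.717 and 0.67), while single internal exons have medians of 0.905 to 0.922.

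Where the annotation gave a coding region, first exons that hold the start codon were more densely covered than those that lie wholly in the 5′UTR, in each of the 4 libraries. The 1147 first exons with the start codon had medians of 0.784 in K562, 1.41 in THP-1, 0.741 in the MOLM13-labelled library and 1.04 in HL60. The 434 exons wholly in the 5′UTR had medians of 0.528, 0.848, 0.537 and 0.651, so they still carried over 0.5 times the density of the internal, mostly coding exons. For 117 first exons no coding region was matched. Second exons that hold the start codon (377) reached 1.59, 2.19, 1.59 and 1.71, and second exons wholly in the 5′UTR (57) 0.555, 1.26, 0.805 and 0.990, both above first exons of the same kind in every library. For exons wholly in the 5′UTR the intervals of the medians overlapped in every library, as in K562 with 0.259 to 1.09 for second exons and 0.471 to 0.614 for first exons. THP-1 had the highest median in each of these classes except second exons with the start codon upstream of them, where HL60 had 1.47 and THP-1 1.44.

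Among first exons with the start codon, medians in THP-1, the MOLM13-labelled library and HL60 were lowest where at most 10% of the exon is coding. In K562 the lowest median was at over 10 and up to 25%. First exons with at most 10% coding bases (107) had medians of 0.712, 1.04, 0.616 and 0.767 in the order K562, THP-1, labelled MOLM13 and HL60. Those with over 10 and up to 25% (162) had 0.674, 1.33, 0.649 and 0.940, and those with over 25 and up to 50% (325) 0.879, 1.51, 0.785 and 1.06. Those with 50 to 75% coding bases (291) had 0.821, 1.55, 0.788 and 1.17, and those with over 75% (262) 0.770, 1.30, 0.752 and 1.08. Start codon context separated a small group: the 48 exons with neither the purine at -3 nor the G at +4 had medians of 0.485, 0.956, 0.430 and 0.757, against 0.805, 1.41, 0.761 and 1.07 for the 630 with both and 0.806, 1.47, 0.724 and 1.07 for the 446 with one. The exons with neither were longer, with a median of 334 bases against 176, and the longest exons had low ratios: first exons with the start codon and over 400 bases (173) had medians of 0.555, 1.19, 0.486 and 0.870, whereas those of over 100 and up to 200 bases (432) had 0.928, 1.47, 0.856 and 1.11. Those of up to 60 bases (62) had 1.15, 1.29, 0.830 and 0.839, and those of over 60 and up to 100 bases (117) 0.918, 1.42, 0.833 and 0.890. Those of over 200 and up to 400 bases (363) had 0.732, 1.44, 0.68 and 1.1. In THP-1, the MOLM13-labelled library and HL60 the median was highest at over 100 and up to 200 bases. In K562 it fell from the shortest class to the longest, except for a step from 0.918 to 0.928. The intervals of those medians overlap, at 0.767 to 1.26 and 0.806 to 1.01. The part of length in the context difference was not tested.

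**Figure D2:**
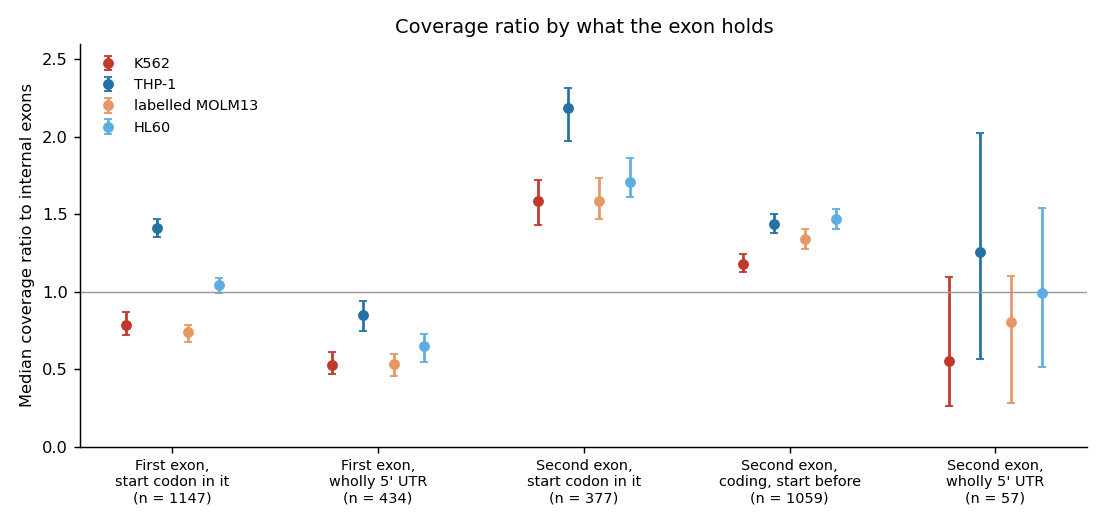
Median ratio of exon coverage to that of internal exons (y axis) for first and second exons by what they hold (x axis), 1 point per library with the 95% order-statistic interval over exons as bars. Start codon exons lie above wholly untranslated exons in every library, at 1.41 against 0.848 for first exons in THP-1.

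In all 4 libraries at once, 78 first exons (4.59%) were at least 2-fold more densely covered than the internal exons and 190 (11.2%) at least 2-fold less. For second exons the shares were reversed, with 189 (11.9%) above and 42 (2.63%) below, and for single internal exons 276 (1.57%) were above and 587 (3.34%) below. Among last exons 1545 of 1874 (82.4%) were below and 4 (0.213%) above. Of the 434 first exons wholly in the 5′UTR, 93 (21.4%) were below in all 4 libraries, compared with 75 of the 1147 with the start codon (6.54%). The shares above were close, 21 (4.84%) and 48 (4.18%). In 400 of the 1698 first exons (23.6%) the 4 ratios lay within 2-fold of each other. Without the MOLM13-labelled library 127 first exons were above and 238 below in the other 3. With coverage summed over transcripts 514 of 2633 scored exons were below (19.5%) and 64 above (2.43%).

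The first exons wholly in the 5′UTR that were above in all 4 libraries mostly held an ATG. Sequence was matched for 406 of the 434, and 162 of those (39.9%) contain an ATG on the transcribed strand in any frame. Of the 21 above in all 4 libraries 16 do (76.2%), and of the 86 below with sequence 33 do (38.4%). Exons with an ATG are longer (median 232 bases against 110), but within length classes the share above also differed: up to 100 bases 5 of 24 exons with an ATG (20.8%) and 3 of 110 without (2.73%) were above, and at over 100 and up to 200 bases 7 of 48 (14.6%) and 1 of 93 (1.08%). At over 200 and up to 400 bases the shares were 3 of 52 (5.77%) and 1 of 38 (2.63%). Over all 406, exons with an ATG had medians of 0.581 in K562, 0.982 in THP-1, 0.588 in the MOLM13-labelled library and 0.815 in HL60, and exons without one 0.524, 0.760, 0.499 and 0.578. An ATG in the sequence is a description of the letters and does not show that a ribosome began there.

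In 13 of those 16 the reading frame of the first ATG closes within the exon. The same share was not counted for the other wholly untranslated exons with an ATG, so it is not read as a trait of the exons above. CCNI encodes cyclin I, and its 518-base first exon (chr4:77075472-77075989, hg38, minus strand) holds 5 ATGs, with 24 codons from the first to its stop. The first exon of CCNI was covered 33.4-fold in K562, 90.3-fold in THP-1, 39.9-fold in the MOLM13-labelled library and 215-fold in HL60, while its internal exons stood at 7.79, 1.14, 9.55 and 5.25. The resulting ratios of 4.29, 79.2, 4.18 and 40.9 put CCNI among the exons above in all 4 libraries and far higher in THP-1 and HL60, where its internal coverage was lower than in the other pair. The internal coverage of 1.14 leaves CCNI close to the scoring minimum of 20 expected footprints in THP-1. The counting error of its ratio of 79.2 is not given. CCNI and the genes named in the next 5 sentences were singled out after their values were seen.

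CWC15, a spliceosome component, has a first exon of 59 bases (chr11:94973498-94973556, minus strand) with a frame of 4 codons, and its ratios were 6.31, 4.86, 6.75 and 4.92. DDX23, an RNA helicase of the spliceosome, has one of 80 bases (chr12:48852084-48852163, minus strand) with a frame of 7 codons and ratios of 4.91, 4.34, 3.96 and 3.53. CCNK, the cyclin partner of a transcription kinase, reached 4.67, 8.69, 10.1 and 3.71. The small GTPase gene NRAS reached 4.67, 4.65, 2.82 and 4.04, with a frame that meets no stop codon within its first exon. Of the 5 exons above in all 4 libraries that hold no ATG, 2 belong to ribosomal protein genes, RPL31 and RPS7, and the others to HSP90AB1, RBMX and STK17B.

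The 8 first exons highest in all 4 libraries belonged to RFC1, EIF4H, TPT1, NOP53, AZIN1, RPF2, PPP4R3B and CYP51A1. RFC1, the large subunit of the clamp loader that places the sliding clamp on DNA, has a first exon of 137 bases (chr4:39366239-39366375, minus strand) whose last 3 bases are the start codon. Its coverage was 159 in K562, 150 in THP-1, 212 in the MOLM13-labelled library and 149 in HL60, against 11.8, 4.90, 14.4 and 10.7 over the internal exons. The ratios were 13.5 (95% interval for counting error 12.4 to 14.8), 30.7 (27.5 to 34.4), 14.8 (13.7 to 16.0) and 14.0 (12.7 to 15.3). Coverage is not scaled for depth, so the ratios and not the coverages are compared between libraries, and THP-1 had the highest ratio. The exon also holds 1 ATG upstream of the main start, at base 57, whose frame of 6 codons ends before the main start codon.

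EIF4H encodes a cofactor of the helicase that unwinds 5′UTRs. Its first exon (85 bases, chr7:74174358-74174442, plus strand) was covered 651-, 638-, 636- and 724-fold in the order K562, THP-1, labelled MOLM13 and HL60, with internal coverage of 63.9, 28.2, 26.3 and 64.1. The ratios were 10.2, 22.6, 24.2 and 11.3, highest in THP-1 and the MOLM13-labelled library. TPT1 encodes the translationally controlled tumor protein, and 28 of the 45 bases of its first exon (chr13:45341042-45341086, minus strand) are coding. TPT1 reached 15.3, 12.3, 15.5 and 9.47 at a coverage of 2442 to 4671. TPT1 has processed copies, which makes its coverage uncertain, and the exon overlaps the annotated gene AL138963.3.

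RPF2 and NOP53 act in assembly of the large ribosomal subunit. RPF2 has a first exon of 92 bases (chr6:110982038-110982129, plus strand) with ratios of 8.94, 8.19, 6.04 and 5.21. This exon holds an upstream ATG 36 bases before the main start, with a frame of 4 codons. The first exon of NOP53 (219 bases, chr19:47745565-47745783, plus strand) had ratios of 10.6, 6.57, 9.99 and 9.35, although the transcript holds only 52.6% of the gene's TPM. PPP4R3B, a regulatory subunit of protein phosphatase 4, has a first exon of 479 bases (chr2:55617144-55617622, minus strand) with 2 upstream ATGs. Its ratios were 11.8 in K562 and 14.2 in THP-1 but 5.11 in the MOLM13-labelled library and 5.19 in HL60, a grouping of the libraries other than the one that prevails among first exons.

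CYP51A1, the lanosterol demethylase of cholesterol synthesis, was the most even of the 8, with 5.04 (4.33 to 5.88), 6.19 (5.57 to 6.91), 5.66 (4.85 to 6.59) and 5.52 (5.04 to 6.04). Its first exon of 305 bases (chr7:92134173-92134477, minus strand) has 192 coding bases. AZIN1 encodes an antizyme inhibitor that raises polyamine synthesis, and its mRNA is known for an upstream reading frame that responds to polyamines. The first exon of AZIN1 (357 bases, wholly 5′UTR, chr8:102863807-102864163, minus strand) was covered 87.7-, 300.3-, 141- and 123-fold, and its ratios were 5.86, 8.36, 6.74 and 11. All 8 of these exons were also above 4-fold in every library, as were 17 first exons in all.

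**Figure D3:**
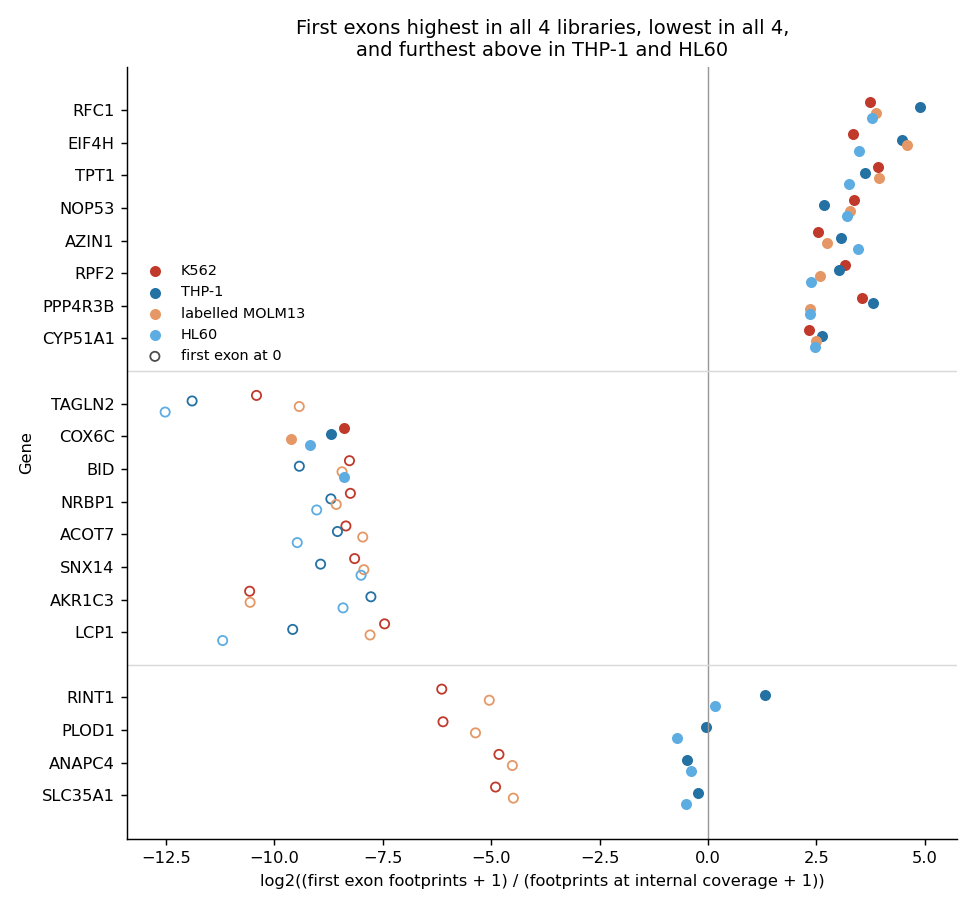
Log2 of first exon footprints over the footprints expected at internal coverage, each plus 1 (x axis), for the 8 first exons highest in all 4 libraries, the 8 lowest and the 4 furthest above in THP-1 and HL60 (y axis), with 1 point per library and open points where the first exon is at 0. The position of an open point reflects only how many footprints were expected, and the 4 genes at the bottom are open in K562 and the MOLM13-labelled library and filled in THP-1 and HL60.

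At the other end, 15 scored first exons were at 0 in all 4 libraries, and 7 of them belong to a gene with another first exon, not always its best covered one, that had coverage in every library. TAGLN2, an actin-binding protein, had no coverage over its 282-base first exon (chr1:159923436-159923717, minus strand) where the internal coverage of 70.7 to 604 predicts 688 to 5868 footprints, which allows a ratio of at most 0.00537 in any library. Another first exon of the gene, which does not overlap it, was covered 304-, 604-, 149- and 606-fold. AKR1C3, an aldo-keto reductase of steroid metabolism, was at 0 with 218 to 1520 footprints expected, and the best covered of its other first exons had 290-fold coverage in K562 and 180-fold in the MOLM13-labelled library, with 0 in THP-1 and 30.1 in HL60.

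In all, 14 of the 190 first exons below in all 4 libraries (7.37%) belong to a gene in which another single first exon, not overlapping the one taken, was higher in every library. Among all 1698 scored first exons this held for 15 (0.883%), and among the 78 above for 0. Since a low first exon is easier to exceed, these shares describe the low exons and are no separate evidence. The top transcript held a median of 73.8% of the gene's TPM for exons below and 85.6% for exons above, with 84.2% over all scored exons.

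NRBP1 and LCP1 differed from TAGLN2 in the coverage of their other first exons. NRBP1, a pseudokinase, was at 0 in all 4 libraries over 393 bases (chr2:27427790-27428182, plus strand) where 303 to 520 footprints were expected, and the best covered of the gene's other first exons had 0.738-, 0.0240-, 0.286- and 0-fold coverage. This transcript holds 99.4% of the TPM of NRBP1, and its first exon has a GC content of 35.9%, far under the median of 65.6%. LCP1, the actin-bundling L-plastin of blood cells, was at 0 over 56 bases of 5′UTR (chr13:46211293-46211348, minus strand), with internal coverage of 90.6, 395, 114 and 1212. A different first exon of LCP1 was covered 884-fold in THP-1 but only 0, 0.509 and 6.60-fold in K562, the MOLM13-labelled library and HL60.

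COX6C, a subunit of cytochrome c oxidase, had 1683 to 2334 expected footprints over its 123 bases (chr8:99893013-99893135, minus strand) and ratios of 0.00241, 0.00180, 0.000842 and 0.00118. The transcript taken holds 55.0% of the TPM of COX6C. Another first exon of the gene was covered 925-, 205- and 178-fold in THP-1, the MOLM13-labelled library and HL60, but was at 0 in K562. The pro-apoptotic BID was at 0 in 3 libraries and had a ratio of 0.00146 in HL60. ACOT7, an acyl-CoA thioesterase, and SNX14, a sorting nexin, were at 0 throughout with 249 to 710 and 244 to 489 footprints expected. Exons at 0 in all 4 libraries had a median GC content of 43.1%, while the 190 exons below in all 4 had 65.5% and the 78 above 61.7%.

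First exons split the 4 libraries into THP-1 and HL60 on one side and K562 and the MOLM13-labelled library on the other more often than into any other pairs. In 225 first exons (13.3%) the lower of THP-1 and HL60 lay at least 2-fold above the higher of the other pair, and in 11 (0.648%) the reverse held. The other 2 ways to pair the libraries gave 31 (1.83%) and 5 (0.294%), and 18 (1.06%) and 5 (0.294%). For second exons the counts of the same split were 101 (6.34%) and 23 (1.44%), and for single internal exons 742 (4.22%) and 364 (2.07%). This pairing was known from earlier results of these data, and it also follows depth, since THP-1 and HL60 are the 2 deeper libraries with 678 and 973 aligned megabases against 472 and 344. The part of depth was not tested. Compared pair by pair, THP-1 and HL60 were 2-fold apart at 20.6% of first exons and K562 and the MOLM13-labelled library at 30.0%, while each pair across the split was apart at 38.5 to 48.9%. THP-1 and HL60 were also the closest pair at second, single internal and last exons, apart at 10.4%, 15.5% and 17.4%. K562 and the MOLM13-labelled library were apart at 24.3% of second exons, against 26.5 to 30.8% across the split. At single internal exons they were apart at 32.3%, against 30.1 to 33.2%. With the MOLM13-labelled library left out, THP-1 and HL60 were above K562 alone at 425 first exons and below it at 75.

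GC content of the exon moved with this difference. The 225 exons had a median GC content of 69.7%, the 11 in the other direction 55.4% and the remaining 1462 65.0%. Between 50 and 60% GC, 298 first exons had medians of 1.20 in K562, 1.41 in THP-1, 1.07 in the MOLM13-labelled library and 1.07 in HL60, and the median log2 difference between the pairs was 0.04. Between 70 and 80% GC, 407 first exons had medians of 0.455, 1.12, 0.424 and 0.827, and the difference was 1.11. The 803 exons from 60 to 70% lay between, at 0.61, and the 21 over 80% reached 1.45. From the 50 to 60% range to the 70 to 80% range the ratio fell by more than 2-fold in K562 and the MOLM13-labelled library and less in THP-1 and HL60.

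The same trend with GC was present outside first exons. Second exons had a difference of 0.32 at 50 to 60% GC, 0.64 at 60 to 70% and, over 25 exons, only 0.68 at 70 to 80%. Single internal exons had 0.17, 0.37 and 0.74 at 50 to 60, 60 to 70 and 70 to 80%, the last over 62 exons. The share of exons past the 2-fold rule at 60 to 70% GC was 12.2% for first exons, 16.2% for second exons and 10.4% for single internal exons. At this GC content the share in first exons lay between those of the other positions, and at 70 to 80% it was 23.8%, 16% (25 second exons) and 17.7%. First exons had a median GC content of 65.6% and internal exons one of 45.8%. Across 1592 first exons with sequence Spearman's rank correlation between GC content and the difference was 0.395 (Pearson's r 0.371), and across 16874 internal exons 0.149 (0.165). Exons of one library share its depth and preparation and are not independent. Whether base composition, the cells or the preparation sets the difference cannot be told apart with 1 library per line.

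**Figure D4:**
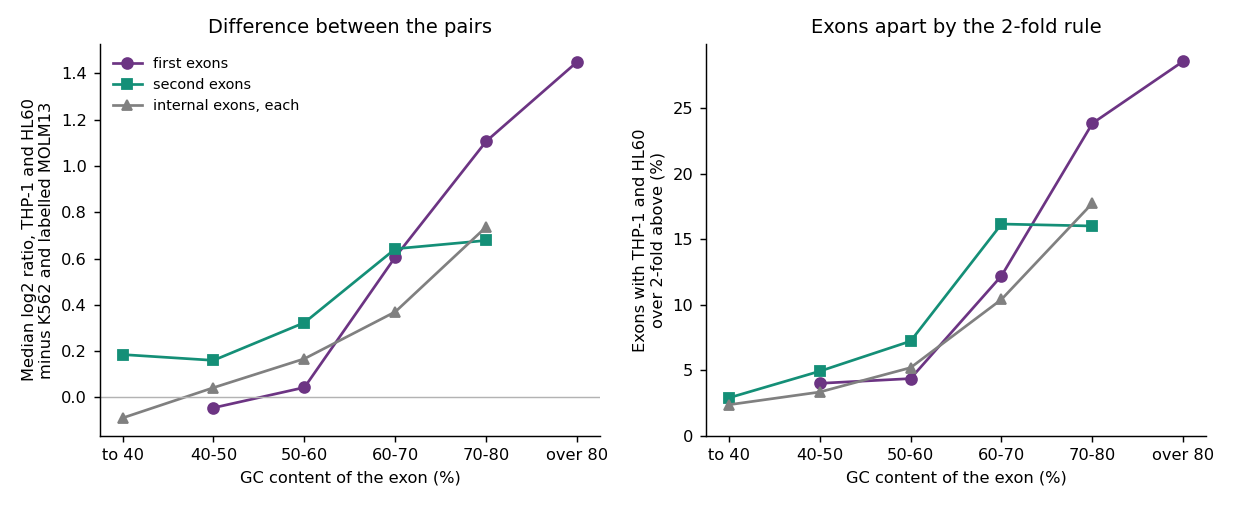
Median log2 difference of the exon ratio between THP-1 and HL60 and K562 and the MOLM13-labelled library (left) and percent of exons where THP-1 and HL60 lie over 2-fold above (right), by GC content of the exon (x axis, percent), for first, second and single internal exons in bins of at least 20 exons. In the left panel all 3 lines climb from 50% GC upward, and first exons reach 1.11 and 23.8% at 70 to 80% GC.

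The exons furthest above in THP-1 and HL60 were those with no coverage at all in the other pair. RINT1, which takes part in vesicle tethering between Golgi and endoplasmic reticulum, had coverage of 0, 15.9, 0 and 18.3 over its 157-base first exon (chr7:105532201-105532357, plus strand) and 12.9, 6.29, 5.91 and 16.5 over its internal exons, in the order K562, THP-1, labelled MOLM13 and HL60. Its ratio was 2.53 (1.98 to 3.19) in THP-1 and 1.11 (0.893 to 1.36) in HL60, and at most 0.0531 and 0.116 in K562 and the MOLM13-labelled library. PLOD1, a lysyl hydroxylase of collagen synthesis, had ratios of 0.972 and 0.607 in THP-1 and HL60 and 0 in the other pair, where 68.2 and 40.1 footprints were expected over 139 bases (chr1:11934717-11934855, plus strand).

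ANAPC4, a subunit of the anaphase-promoting complex, had 0.7 and 0.760, and SLC35A1, the transporter of CMP-sialic acid, 0.848 and 0.696, both again with 0 in K562 and the MOLM13-labelled library. The expected footprints there were only 21.5 to 28.9, so ratios of up to 0.136 and 0.169 for ANAPC4 (chr4:25377263-25377344, plus strand) and 0.128 and 0.173 for SLC35A1 (chr6:87472974-87473019, plus strand) cannot be told from 0. The best covered of the other first exons of ANAPC4 had coverage of 6.291 in K562, 2.985 in THP-1, 0 in the MOLM13-labelled library and 4.215 in HL60. The ANAPC4 transcript taken holds 72.4% of the gene's TPM. Of the 225 exons, 13 were at 0 on the low side, and 2 of those were at 0 in all 4 libraries, so that only their expected footprints differ. Below these, with coverage on both sides, CHAF1A, a histone chaperone subunit, had 0.131, 3.31, 0.355 and 2.98, and the G protein subunit GNB1 0.204, 2.55, 0.419 and 2.07. The GC content of these exons was 80.4% and 83.5%. The DNA repair kinase PRKDC had 0.106, 0.588, 0.0728 and 0.938. CHAF1A, GNB1 and PRKDC were chosen after their values were seen.

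In the other direction, 3 of the 11 exons (TAGLN2, LCP1 and SUV39H1) were at 0 in all 4 libraries, so that only their expected footprints differ and no difference in the first exon was measured. The keratin gene KRT10 had ratios of 0.0563 in K562 and 0.0686 in the MOLM13-labelled library and was at 0 in THP-1 and HL60, over a 656-base first exon (chr17:40821959-40822614, minus strand) with 627 coding bases. ATP5MD, a small subunit of ATP synthase, gave 1.17 (1.04 to 1.31) and 1.09 (0.944 to 1.25) in K562 and the MOLM13-labelled library, against 0.391 (0.356 to 0.427) and 0.406 (0.372 to 0.442) in THP-1 and HL60. Its first exon coverage was 193, 267, 132 and 302 and its internal coverage 165, 682, 121 and 744. PRDX1, a peroxiredoxin chosen after its values were seen, was also higher in K562 and the MOLM13-labelled library, at 1.18, 0.358, 0.902 and 0.251.

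Single libraries stood apart at some first exons. In K562 alone CUL1, the scaffold of an SCF ubiquitin ligase, was at 0 over a 127-base 5′UTR exon (chr7:148698903-148699029, plus strand) with 114 footprints expected, while the ratios in THP-1, the MOLM13-labelled library and HL60 were 2.36, 0.918 and 3.10. MRPL10 was the one furthest above in K562, but only at 0.0227 against 0 in the other 3. In THP-1 alone CMTR1, which methylates the mRNA cap, was at 0, with 0.307, 0.591 and 0.523 in the other 3 libraries. In the MOLM13-labelled library alone SMARCD2, a subunit of the SWI/SNF remodeller, was at 0 with 133 footprints expected, and its ratios were 0.401, 0.656 and 0.396 in K562, THP-1 and HL60. INSIG1, a sterol-responsive protein of the endoplasmic reticulum, was highest there at 0.113.

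In COASY and ADI1, the exons furthest above in HL60 alone and in THP-1 alone, low internal coverage was part of the quotient. COASY, which carries out the last steps of coenzyme A synthesis, had ratios of 1.5, 3.27, 1.05 and 28.8, and the HL60 ratio rests on an internal coverage of 0.997 and a first exon coverage of 28.8. ADI1, of the methionine salvage pathway, was furthest above in THP-1 at 0.125, where its internal coverage was 0.6 against 55.5 to 174 in the other 3. HMGN5, a nucleosome-binding protein, was furthest below in HL60, at 0.000341 against 0.191, 0.378 and 0.0190.

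Gene groups differed in how their first exons were covered, and cytosolic ribosomal proteins lay at both ends. The lists were chosen with earlier results of these data known, so their counts are read beside the 4.59% above, the 11.2% below and the 13.3% with THP-1 and HL60 above over all scored first exons. List members other than the highest and the lowest were chosen after their values were seen. Of 50 ribosomal protein first exons among the members 27 were scored, 4 of them above in all 4 libraries and 11 below, with medians of 0.724 in K562, 0.348 in THP-1, 0.441 in the MOLM13-labelled library and 0.453 in HL60. The list's order of libraries differs from the overall one, with K562 highest and THP-1 lowest, and 0 of its exons were called for THP-1 and HL60. These exons are short, with a median of 71 bases, and 7 hold the start codon.

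RPL22 was the highest of the ribosomal proteins, at 4.77, 5.04, 4.17 and 6.14, with a first exon of 34 bases (chr1:6199562-6199595, minus strand) that ends 9 bases after the start codon. RPS18 had 4.92, 3.52, 7.24 and 3.13 over 27 bases, and RPS7 and RPL31 were the other two above. RPL28 was lowest, at 0.0293, 0.0634, 0.0211 and 0.00874, where the transcript taken holds 35.4% of the gene's TPM. Another first exon of RPL28 was covered 951-, 840- and 41.1-fold in K562, THP-1 and the MOLM13-labelled library, but was at 0 in HL60. RPS19 had 0.0551, 0.0478, 0.0683 and 0.0421, and RPS12 0.0688, 0.0573, 0.0244 and 0.0426. Ribosomal protein genes have many processed copies, and their coverage is uncertain for that reason. The first exons of RPL22, RPL28 and RPS18, at 34, 32 and 27 bases, are about as long as 1 footprint, and the part of this in their ratios was not tested.

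The 30 scored nuclear-encoded respiratory chain genes were low, with medians of 0.510, 0.820, 0.444 and 0.630, with 7 below in all 4 libraries and 0 above. UQCRC1, a core subunit of complex III, was the highest at 1.75, 3.65, 1.16 and 1.74, and COX6C the lowest. Mitochondrial ribosomal proteins (33 scored) had 0.767, 1.36, 0.450 and 0.95, with 0 above, 3 below and 5 with THP-1 and HL60 above, the latter counts near the shares over all scored first exons. MRPS26 led them at 2.21, 1.6, 2.94 and 1.38.

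In chaperones 7 of 21 scored first exons lay apart with THP-1 and HL60 above, beside 13.3% over all scored first exons, with 1 above and 4 below in all 4 libraries. The cytosolic chaperonin subunits CCT6A and TCP1 showed it, at 0.455, 1.76, 0.68 and 1.57 for CCT6A and 1.70, 5.68, 1.98 and 4.10 for TCP1. Among the heat shock proteins, HSP90AB1 was above in all 4 libraries at 4.56, 5.61, 5.31 and 4.46, over a 95-base untranslated exon (chr6:44247101-44247195, plus strand) with no ATG. HSP90AA1 was the lowest, at 0.00735, 0, 0.0247 and 0.00166, where THP-1 had only 27.9 expected footprints and allows a ratio of up to 0.134. In HSP90AA1 the transcript taken starts at a first exon (chr14:102139250-102139686, minus strand) that overlaps WDR20, and another first exon of the gene was covered 220- to 401-fold.

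Translation factors (24 scored) were denser than average at 0.964, 1.66, 1.02 and 1.17, with 2 above and 1 below in all 4 libraries and 0 apart between the pairs. EIF4H was the highest and EEF1B2, an exchange factor of elongation, the lowest at 0.404, 0.246, 0.6 and 0.120. SR and hnRNP splicing factors (20 scored) had 1.10, 1.69, 0.910 and 1.22, and HNRNPUL1, their highest member, had 1.82, 2.53, 2.04 and 2.17. For HNRNPUL1 the direction depends on the internal exons used, since against wholly coding ones its mean log2 ratio was -0.61. HNRNPA2B1 was their lowest, at 0.237, 0.494, 0.222 and 0.401, with an exon that overlaps CBX3.

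Proteasome subunits (24 scored) had medians of 1.03, 1.37, 0.909 and 1.04, with PSMC4 above in all 4 libraries (3.05, 2.61, 4.20 and 2.01) and PSMA1 below (0.432, 0.223, 0.265 and 0.147). The start codon of PSMA1 forms the last 3 bases of its first exon, as in RFC1, which lies at the opposite end. Aminoacyl-tRNA synthetases (12 scored) had 1.23, 1.76, 0.994 and 1.21 with 0 above and 0 below, and TARS1 was the highest at 1.13, 3.26, 2.01 and 2.67. Genes of DNA replication and the cell cycle (27 scored) had 0.708, 1.48, 0.673 and 0.970, close to all scored first exons. RFC1 and the topoisomerase TOP2A (4.41, 4.41, 3.96 and 2.77) were above in that list, and RPA3 was at 0 in all 4 libraries. Glycolysis and TCA cycle genes (13 scored) had 0.940, 1.05, 0.733 and 0.838, with GPI highest at 1.76, 2.09, 1.53 and 2.25 and ENO1 lowest at 0.213, 0.325, 0.224 and 0.167, where the exon overlaps ENO1-AS1.

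Of 35 genes known for upstream reading frames 7 were members and 3 were scored. AZIN1 was above in all 4 libraries, as was DROSHA, the nuclease that begins microRNA processing, at 4.69, 4.00, 2.35 and 4.06 (chr5:31531990-31532093, minus strand). EPRS1, the glutamyl-prolyl-tRNA synthetase, had 1.03 (0.936 to 1.13), 2.90 (2.79 to 3.02), 0.938 (0.835 to 1.05) and 2.06 (1.97 to 2.17), so it was near 1 in K562 and the MOLM13-labelled library and above 2 in THP-1 and HL60. Myeloid and blood cell genes gave 5 scored exons, 2 of them below in all 4 libraries, with CYBA, a subunit of the phagocyte oxidase, highest at 1.18, 1.61, 0.805 and 0.865.

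**Figure D5:**
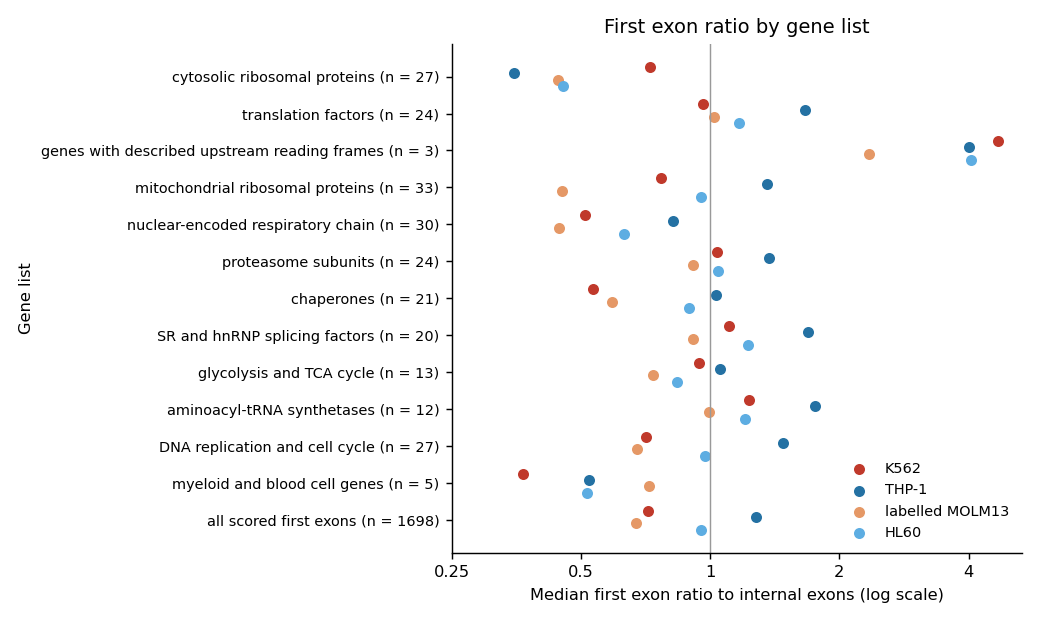
Median first exon ratio (x axis, log scale) of 12 gene lists and of all scored first exons (y axis, with the number scored), 1 point per library. THP-1 is the furthest right in 9 of the 12 lists, while in cytosolic ribosomal proteins it is the furthest left at 0.348 and K562 the furthest right at 0.724.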

How the data were processed

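Ribosome-protected fragments were sequenced from 4 cell lines, 1 library each, with 472 (K562), 678 (THP-1), 344 (labelled MOLM13) and 973 (HL60) aligned megabases. Per the submitters' processing notes, the authors worked on hg38 with Trim Galore (0.6.6), then Bowtie2 (version 2.4.2), the aligner STAR (version 2.7.8a) and StringTie (version 2.1.5). Per the file headers, StringTie quantified read 1 against GENCODE release 37 without a strand option, and the deposited values are coverage per exon and coverage, FPKM and TPM per transcript. How reads that match several places were treated is not given in the sources used here. StringTie divides reads of a shared exon among transcripts, which can move a first exon ratio. Read counts were not used here: footprint equivalents are coverage times length over 29 bases, the modal aligned length on single-exon transcripts.

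Scores are log2((observed + 1)/(expected + 1)) footprints, scored from 20 expected footprints in all 4 libraries, with a threshold of 1. Intervals of single ratios are 95% intervals for counting error of the ratio, not of the first exon alone. Intervals of medians are 95% order-statistic intervals over exons. Coding regions and sequences came from GENCODE release 29 transcripts with the same introns (2707 of 2836 members, 2520 with a coding region, 2618 with at least 80% of the first exon). Calls were tested on simulated data. Named genes are the 8 highest and 8 lowest in all 4 libraries, 4 per direction of the split, the highest and lowest alone per library and the extremes of each list, without Y-linked genes, and others are named as chosen later. Some results that this rule selects are not reported here. The members, lists and pairing were chosen with earlier results of these data known. Alternatives covered the pseudocount, the minimum, the internal exons used, exon length, transcript share, overlap, TPM, fold and libraries. The software was bedtools 2.31.1 and Python 3.11.15 with Matplotlib 3.10.9, pandas 2.3.3, NumPy 2.4.6, pyarrow 21.0.0 and SciPy 1.17.1.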

Additional observations from a re-analysis of the deposited data

How the results depend on the processing

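THP-1 and HL60 kept higher median first exon ratios than K562 and the MOLM13-labelled library under every alternative tried that included all 4, but the levels moved. With the first exon shortened by 0.5 of a footprint the medians were 0.788 (K562), 1.4 (THP-1), 0.735 (labelled MOLM13) and 1.06 (HL60). Against the median of the internal exons the first 3 of these were 0.761, 1.36 and 0.726. With coverage summed over transcripts that share the exon they were 0.479, 0.956, 0.476 and 0.693. Transcripts with at least 80% of the gene TPM gave 0.755 in K562, 1.37 in THP-1 and 1.03 in HL60, and genes with a TPM of at least 50 gave 0.767, 1.13 and 0.832. The 78 first exons above in all 4 libraries (4.59% of those scored) became 50 at the 80% share (5.2%), 26 at the TPM of 50 (4.63%), 17 under a 4-fold rule (1%) and 127 without the MOLM13-labelled library (6.64%). The 190 below (11.2%) became 76 (7.9%), 82 (14.6%) and 88 (5.18%) under the first 3 of these and 514 with summed coverage (19.5%). The 225 with THP-1 and HL60 above (13.3%) became 143 (14.9%), 41 (7.31%) and 37 (2.18%) under the same 3, 413 with summed coverage (15.7%), 425 against K562 alone and 454 against the MOLM13-labelled library alone. The 11 in the other direction became 5, 4 and 1 under the same 3, 81 with summed coverage, 19 with a minimum of 5 expected footprints, 7 with coding internal exons, 75 against K562 alone and 39 against the MOLM13-labelled library alone. The 80% share scores 962 exons, the TPM of 50 scores 561 and summed coverage 2633, while the 4-fold rule scores the same 1698. Other causes of these moves were not tested. The comparisons against a single library, and those without first exons at 0 in all 4, were chosen after seeing the data. The mean log2 ratio of HNRNPUL1 reversed to -0.613 with coding internal exons only, and the cause was not tested. No paired analysis was possible because each line has 1 library. Internal coverage limits which first exons could be scored: 2216 members in K562 and 2281 in the MOLM13-labelled library reached 20 expected footprints, against 2478 in THP-1 and 2508 in HL60.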
